A study of Mus musculus with 4 samples.

Results

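Glypicans and syndecans are the main families of heparan sulfate proteoglycans of the cell surface. All 10 mouse genes of both families, Gpc1 to Gpc6 and Sdc1 to Sdc4, were examined out of 39179 gene identifiers in a table of RNA sequencing counts. The members were chosen by gene symbol, with no limit on their values. The families themselves were selected on results already known from these 4 libraries, their fold changes and adjusted p-values, so the calls on the 10 genes are a description and support nothing further. The cells were cardiac progenitors, differentiated from murine embryonic stem cells in which Gata6 can be switched on. Gata6 encodes a factor that acts in the early heart and in endoderm. They had received cucurbitacin I hydrate at 10 µM for 2 days (2 libraries) or its solvent DMSO, at 0.1% of the medium, for as long (2 libraries). Cucurbitacin I comes from plants of the gourd family, is widely used to block signalling through JAK2 and STAT3, and is labelled as a screening hit. Both groups share this cell line. The labels start the treatment on day 6, name day 8 in the sample titles and day 10 in the extraction protocol. Whether each library had a culture of its own is not stated, so a p-value here covers the spread of these 4 samples alone, and that spread may be technical.

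Both families carry long sulfated sugar chains, heparan sulfate, on a protein core and hold growth factors, morphogens and matrix proteins at the cell surface. Glypicans are tied to the outer face of the membrane by a lipid anchor, and are known for setting the range and strength of Hedgehog, Wnt, BMP and FGF signals in embryos. Syndecans cross the membrane, and their short tails bind scaffold proteins and connect the matrix with the actin cytoskeleton.

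In the libraries treated with cucurbitacin I, Gpc6, Sdc2 and Sdc1 were lower than in DMSO and Gpc4 was higher. Gpc3, the most abundant of the 10 per length, did not pass the threshold. Of the 9 genes with enough counts to be tested, 1 was higher and 3 were lower at an adjusted p below 0.05 (edgeR quasi-likelihood test, Benjamini-Hochberg adjustment over 16722 genes). Of all genes tested, 33.4% were called, 13.9% higher and 19.5% lower. Without DMSO replicate 1 the calls among the 9 genes were 0 higher and 2 lower, without DMSO replicate 2 they were 2 higher and 3 lower, and with library totals as the scaling 1 higher and 5 lower. The median log2 fold change (cucurbitacin I over DMSO) was -0.38 over the 9 genes and -0.01 over all genes tested. Levels are given as CPM, counts scaled to the size of the library with its TMM factor. The 2 groups were apart in CPM in 8 of the 9 genes, and in 73% of all genes tested. The 8 include Sdc3 by a near tie, with 1 library of each group at 210.3 CPM. Gpc5 had too few counts to be tested.

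Library totals over all genes were 26773886 and 23759431 counts for cucurbitacin I, and 27069312 and 25573785 for DMSO. All 9 cardiomyocyte markers examined were counted in every library. They summed to 28650 and 36040 CPM in cucurbitacin I against 9035 and 11600 CPM in DMSO, with 5 higher. The other 4 did not pass. Among these was Nkx2-5, at 48.9 and 53.6 CPM in cucurbitacin I and 47.7 and 38.2 CPM in DMSO. The pluripotency markers summed to 2.01 and 2.98 CPM in cucurbitacin I and 3.14 and 3.57 CPM in DMSO. Several other marker lists differed between the groups. The 9 endoderm markers summed to 7.87 and 10.1 CPM in cucurbitacin I against 537 and 803 CPM in DMSO, with 8 lower. The 8 endothelial markers summed to 24.6 and 34.0 CPM in cucurbitacin I against 138 and 178 CPM in DMSO, with 6 lower and Emcn at 0 counts in both cucurbitacin I libraries. The 8 blood markers summed to 32.0 and 58.4 CPM in cucurbitacin I against 503 and 723 CPM in DMSO, with 6 lower. The 7 fibroblast and matrix markers summed to 868 and 1169 CPM in cucurbitacin I against 1276 and 1793 CPM in DMSO, with 5 lower. The 6 smooth muscle markers summed to 35200 and 26350 CPM in cucurbitacin I against 3664 and 5369 CPM in DMSO, with all 6 higher. The 5 epithelial markers summed to 293 and 83.8 CPM in cucurbitacin I and 502 and 189 CPM in DMSO, with 3 lower. The 5 epicardial ones summed to 40.1 and 70.3 CPM in cucurbitacin I and 39.4 and 156 CPM in DMSO, with 2 lower, and 3 of the 4 neural ones tested were lower. Fewer cells of a type and less RNA per cell cannot be told apart in these samples, and the part of other cell types in the values below was not tested.

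The 10 genes lie on 8 mouse chromosomes, with glypican pairs side by side on 2 of them. On the X chromosome Gpc4 (52053021 to 52165252, mm10) lies 107 kb from Gpc3 (52272426 to 52613950), both on the minus strand. On chromosome 14 Gpc5 (115092215 to 116525179) lies 400 kb before Gpc6 (116925297 to 117979529), both on the plus strand. The promoters of 7 of the 10 genes were found in RefSeq (GRCm38.p6, the assembly of mm10), and those of Gpc1, Gpc6 and Sdc2 are not shown. The window examined was the 250 bases before the RefSeq start. In 3 of the 7 genes, Gpc2, Gpc4 and Sdc1, it reaches into an exon of a gene model in GENCODE M21, so these are not shown either. The windows of Gpc4 and Sdc4 lie wholly within the deposited coordinates of their genes, so they are not sequence upstream of those. Windows of Gpc3 and Sdc3, the glypican and the syndecan with the highest level per length in both groups, are given here. Capitals mark the GC box, GGGCGG on either strand, which binds Sp1-type factors.
Gpc3 (chrX:52613975-52614224, minus strand): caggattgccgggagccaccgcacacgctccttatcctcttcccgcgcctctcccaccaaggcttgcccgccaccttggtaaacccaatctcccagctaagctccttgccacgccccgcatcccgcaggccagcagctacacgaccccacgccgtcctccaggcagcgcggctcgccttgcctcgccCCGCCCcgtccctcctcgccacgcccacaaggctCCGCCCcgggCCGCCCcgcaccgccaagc
Sdc3 (chr4:130792287-130792536, plus strand): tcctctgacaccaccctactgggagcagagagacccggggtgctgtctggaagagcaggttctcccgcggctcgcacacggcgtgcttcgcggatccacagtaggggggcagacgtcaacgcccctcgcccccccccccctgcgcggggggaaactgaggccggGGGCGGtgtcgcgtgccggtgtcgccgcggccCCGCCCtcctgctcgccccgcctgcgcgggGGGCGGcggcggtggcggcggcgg
All 7 windows held at least 1 GC box, with 3 in Gpc3 and 3 in Sdc3, and 32.7% of 32851 such windows of all gene kinds in RefSeq did. The base composition was 71.6% G and C for Gpc3 and 76.4% for Sdc3, where the median window had 52.4%. The sequence TTCNNNGAA, the form of site that STAT factors bind, was in none of the 7 windows and in 7.02% of all windows. At so low a share, no match in 7 windows says little, and Gpc6 and Sdc2 were not among them. These matches are a description of the letters, not of binding.

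**Figure D1:**
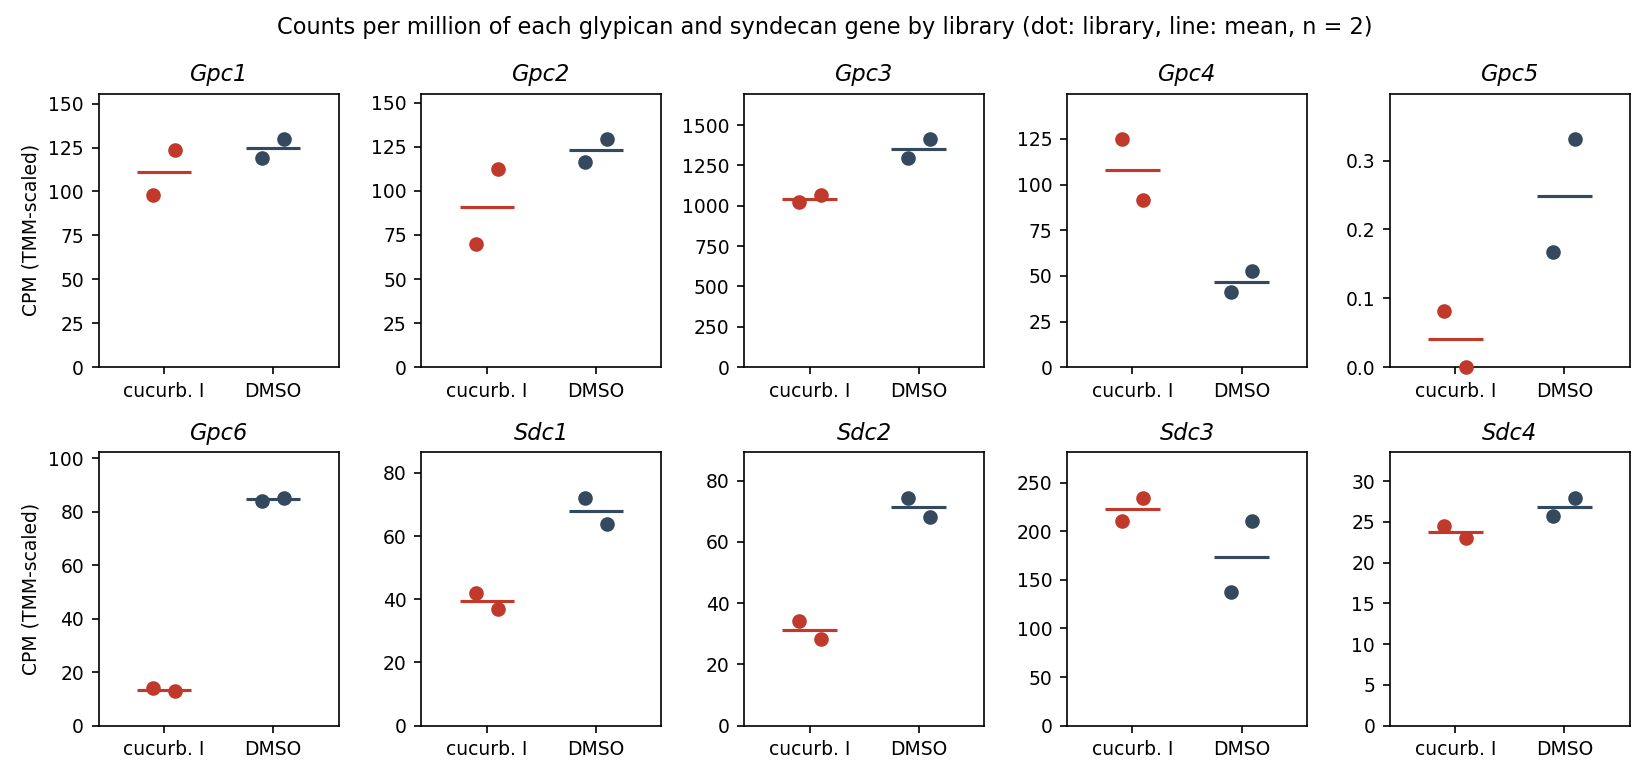
CPM (vertical axes, each from 0) of the 10 genes in the cucurbitacin I libraries (left, red) and the DMSO libraries (right, dark). Dots are libraries and lines are means of 2. Gpc6, Sdc1 and Sdc2 sit lower and Gpc4 sits higher in both cucurbitacin I libraries. The groups overlap in Gpc1 and all but meet in Sdc3, at 210.3 CPM.

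Gpc6, whose human counterpart is mutated in the skeletal disorder omodysplasia, had the largest fold change among the 9 tested genes. It was counted 343 and 285 times in the cucurbitacin I libraries, against 2512 and 2318 times in the DMSO libraries. Scaled for depth, this was 14.1 and 12.9 CPM in cucurbitacin I, against 83.9 and 85.3 CPM in DMSO. The replicates of each group lay close together and the groups lay far apart. Gpc6 was 6.28-fold lower in cucurbitacin I (log2 fold change -2.65, SE 0.10, adjusted p = 0.000741). It passed in all 4 fits with 1 library left out, with log2 fold changes between -2.71 and -2.58. Its neighbour Gpc5, a glypican known to promote Hedgehog signalling in human rhabdomyosarcoma cells, had 2 and 0 counts in cucurbitacin I and 5 and 9 counts in DMSO. The ratio of scaled counts, cucurbitacin I over DMSO, was 0.175 (exact 95% binomial interval 0.0193 to 0.763, for counting error only). The next protein-coding gene tested on the other side of Gpc6, Tgds, 132 kb away, had a log2 fold change of 0.14 (adjusted p = 0.405).

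Gpc4, a close relative of Gpc6 in sequence that is known for roles in Wnt and FGF signalling, went the other way. It had 3049 and 2021 counts in cucurbitacin I, against 1227 and 1431 in DMSO. In CPM these were 125 and 91.3 in cucurbitacin I, against 41.0 and 52.7 in DMSO. The groups did not overlap, though the cucurbitacin I libraries differed from each other by more than the DMSO libraries did. Gpc4 was 2.31-fold higher (log2 fold change 1.21, SE 0.20, adjusted p = 0.0104). It missed the threshold without DMSO replicate 1 (log2 fold change 1.04, adjusted p = 0.0541), and it passed without each of the other 3 libraries.

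Gpc3, whose loss causes Simpson-Golabi-Behmel overgrowth syndrome in humans and which binds Hedgehog proteins, was the most counted of the 10. It had 24990 and 23569 counts in cucurbitacin I, against 38796 and 38401 in DMSO. This was 1024 and 1065 CPM in cucurbitacin I, against 1296 and 1413 CPM in DMSO. Both cucurbitacin I libraries were below both DMSO libraries. The log2 fold change was -0.38 (SE 0.14), and it did not pass with edgeR (adjusted p = 0.0885). It passed with DESeq2 (adjusted p = 0.0185) and with library totals alone as the scaling (log2 fold change -0.61, adjusted p = 0.0164). In the authors' deposited table its adjusted p was 0.000461, at a log2 fold change of -0.375. The authors' deposited table gave Gpc6 -2.63 (adjusted p = 7.75e-129), Gpc4 1.15 (3.87e-05), Sdc2 -1.17 (3.55e-12) and Sdc1 -0.776 (1.16e-06), and for the other 5 genes adjusted p-values from 0.15 to 0.502.

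Gpc1, a glypican of the nervous system and of many other tissues, and Gpc2, also called cerebroglycan and best known from developing neurons, did not pass. Gpc1 (chromosome 1, 92831645 to 92860198) was at 98.1 and 124 CPM in cucurbitacin I and at 119 and 130 CPM in DMSO, so the groups overlapped. Its log2 fold change was -0.17 (SE 0.14, adjusted p = 0.391). Gpc2 (chromosome 5, 138264952 to 138280005) was at 69.9 and 112 CPM in cucurbitacin I and at 117 and 129 CPM in DMSO. Cucurbitacin I replicate 1 stood well below the other 3 libraries. The log2 fold change of Gpc2 was -0.43 (SE 0.23, adjusted p = 0.192), and it turned on which cucurbitacin I library was kept. Without cucurbitacin I replicate 2 it was -0.81 and passed (adjusted p = 0.00701), and without cucurbitacin I replicate 1 it was -0.12 (adjusted p = 0.533). The deposited coordinates of Gpc2 reach past its gene model in GENCODE M21, over the model Gm43720, which shares exons with it on the same strand. The reads and the length of Gpc2 are uncertain to that extent.

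Of the syndecans, Sdc2 and Sdc1 were lower and Sdc3 and Sdc4 did not pass. Sdc2 (chromosome 15, 32920723 to 33034730), known as the syndecan of mesenchymal cells, had 836 and 629 counts in cucurbitacin I, against 2230 and 1853 in DMSO. In CPM it was at 34.3 and 28.4 in cucurbitacin I, against 74.5 and 68.2 in DMSO. Sdc2 was 2.28-fold lower, with groups that did not overlap (log2 fold change -1.19, SE 0.13, adjusted p = 0.00396). It passed without each library in turn, with log2 fold changes between -1.32 and -1.05. Its nearest tested protein-coding neighbours were called lower, where 19.5% of all genes tested were. Sema5a, 224381 bases away, had a log2 fold change of -1.71 (adjusted p = 0.0352) and Cpq, 48398 bases away, -1.64 (adjusted p = 0.00581). Called neighbours also lay beside members that did not pass: Laptm5 (-5.19) by Sdc3, Rbpjl (-4.22) by Sdc4 and Ankmy1 (1.86) by Gpc1. An effect of location was not tested.

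Sdc1 (chromosome 12, 8771323 to 8793715), the syndecan of epithelia and plasma cells, had 1026 and 814 counts in cucurbitacin I, against 2161 and 1733 in DMSO. These were 42.0 and 36.8 CPM in cucurbitacin I, against 72.2 and 63.8 CPM in DMSO. Sdc1 was 1.73-fold lower, with no overlap between groups (log2 fold change -0.79, SE 0.12, adjusted p = 0.00864). It missed the threshold without DMSO replicate 1 (log2 fold change -0.69, adjusted p = 0.0531), nor did it pass a test against a 1.5-fold change (adjusted p = 0.125). The epithelial marker Epcam was at 1.15 and 0.407 CPM in cucurbitacin I and at 33.7 and 9.39 CPM in DMSO, while the keratin gene Krt18 overlapped between groups.

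Sdc3 (chromosome 4, 130792537 to 130826319), best known from nerve cells and as a receptor for pleiotrophin, was at 210 and 235 CPM in cucurbitacin I and at 138 and 210 CPM in DMSO. DMSO replicate 1 was low, while DMSO replicate 2 was level with cucurbitacin I replicate 1. The log2 fold change was 0.36 (SE 0.21, adjusted p = 0.244). Without DMSO replicate 2 it was 0.69 and passed (adjusted p = 0.0418), and without DMSO replicate 1 it was 0.08. The antisense gene Gm26716 overlaps exons of Sdc3 and holds 10.6% as many counts, and the sources used here do not say whether the counting used the strand. Sdc4 (chromosome 2, 164424247 to 164443887), the syndecan of focal adhesions, was at 24.5 and 23.0 CPM in cucurbitacin I and at 25.7 and 28.0 CPM in DMSO. These values lay close together, and the log2 fold change was -0.17 (SE 0.12, adjusted p = 0.301). With library totals as the scaling Sdc4 passed (log2 fold change -0.41, adjusted p = 0.0471).

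**Figure D2:**
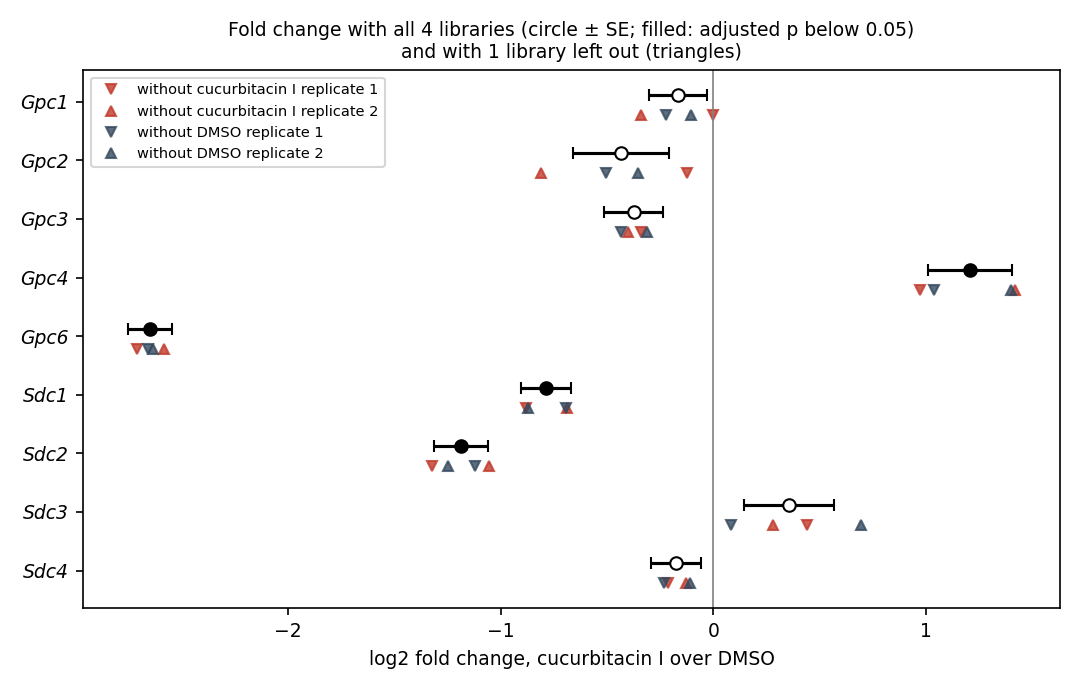
Log2 fold change, cucurbitacin I over DMSO (horizontal axis), for the 9 tested genes. Circles with bars are the fit to all 4 libraries ± SE, filled where the adjusted p is below 0.05, and triangles are fits without 1 library. Gpc6 stays between -2.71 and -2.58 whichever library is left out, and Sdc3 ranges from 0.08 to 0.69.

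Levels were compared between genes as CPM per kilobase of exon. In cucurbitacin I the order was Gpc3 at 388 ± 10.7, Gpc4 at 40.8 ± 8.97, Sdc3 at 37.2 ± 2.88, Gpc1 at 21.5 ± 3.53 and Gpc2 at 21.3 ± 7.02 CPM per kb (SD, n = 2). Then came Sdc1 at 10.4 ± 0.98, Sdc4 at 9.33 ± 0.395, Sdc2 at 8.89 ± 1.17, Gpc6 at 2.10 ± 0.13 and Gpc5 at 0.0092 ± 0.013 CPM per kb. The library ranges of Gpc4 and Sdc3 overlapped, as did those of Gpc1 and Gpc2, and that of Sdc2 overlapped those of Sdc4 and Sdc1. In DMSO the order was Gpc3 at 504 ± 30.9, Sdc3 at 29.0 ± 8.58, Gpc2 at 28.8 ± 2.12, Gpc1 at 24.1 ± 1.44 and Sdc2 at 20.2 ± 1.26 CPM per kb. Then came Sdc1 at 17.9 ± 1.56, Gpc4 at 17.7 ± 3.12, Gpc6 at 13.2 ± 0.15, Sdc4 at 10.5 ± 0.64 and Gpc5 at 0.056 ± 0.026 CPM per kb. There the range of Sdc3 overlapped those of Gpc2 and Gpc1, and that of Gpc4 overlapped those of Sdc1 and Sdc2, so these places are not set apart by the libraries. By its mean on this length Gpc4 was the second of the 10 in cucurbitacin I and the seventh in DMSO. These places depend on the length as well. With the longest transcript in place of all exons, the mean of Sdc3 stood above that of Gpc4 in cucurbitacin I. In DMSO Gpc6 then stood above Gpc4, Gpc1 above Gpc2, and Sdc1 above Sdc2.

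**Figure D3:**
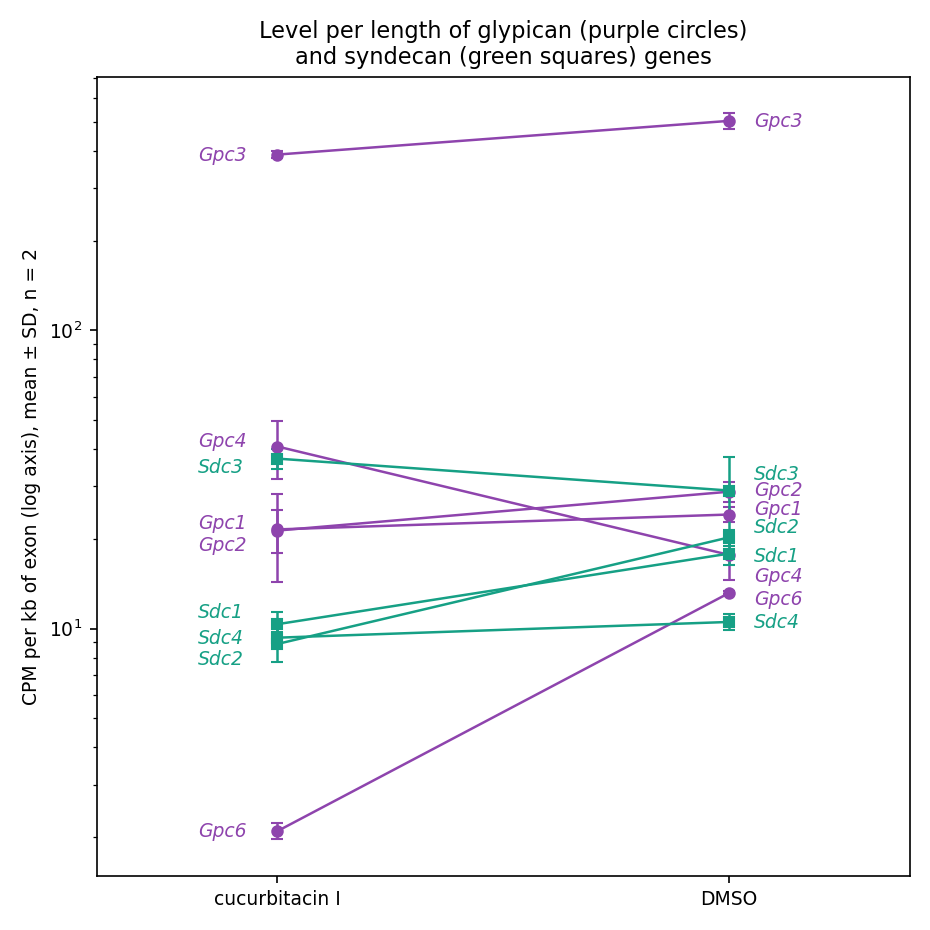
CPM per kb of exon (vertical axis, log scale; mean ± SD, n = 2) of 9 genes in cucurbitacin I (left) and DMSO (right), with lines joining the same gene. Gpc5 is left out because a library had 0 counts. The line of Gpc6 is the steepest, that of Gpc4 slopes the other way, and Gpc3 stays above the other 8 genes in both groups.

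The summed glypican level per length was 465 and 483 CPM per kb in cucurbitacin I, against 561 and 614 CPM per kb in DMSO. Gpc3 made up 81.8% and 82.0% of it in cucurbitacin I, against 85.9% and 85.6% in DMSO. The other 5 glypicans together came to 84.7 and 86.7 CPM per kb in cucurbitacin I and to 79.0 and 88.7 CPM per kb in DMSO, so these sums overlapped. Their make-up differed. Among these 5, Gpc4 held 55.6% and 39.7% in cucurbitacin I, against 19.6% and 22.4% in DMSO. Gpc6 held 2.58% and 2.31% in cucurbitacin I, against 16.5% and 15.0% in DMSO. The ratio of Gpc4 to Gpc6 within a library was 21.5 and 17.2 in cucurbitacin I, against 1.18 and 1.5 in DMSO. With the longest transcript as the length, Gpc6 stood above Gpc4 in DMSO. Among the 5 glypicans Gpc6 then held 22.06% and 20.16% in DMSO, and Gpc4 16.85% and 19.47%. In cucurbitacin I Gpc4 stayed above, at 52.09% and 36.79% against 3.747% and 3.317% for Gpc6. The ratio of the X-linked neighbours Gpc3 to Gpc4 was 8.08 and 11.5 in cucurbitacin I, against 31.2 and 26.5 in DMSO.

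The summed syndecan level was 65.5 and 66.0 CPM per kb in cucurbitacin I, against 73.1 and 82.2 CPM per kb in DMSO. Sdc3 held 53.6% and 59.4% of it in cucurbitacin I, against 31.4% and 42.7% in DMSO. Sdc2 held 14.8% and 12.2% in cucurbitacin I, against 28.9% and 23.5% in DMSO, and Sdc1 held 16.9% and 14.6% in cucurbitacin I, against 25.9% and 20.4% in DMSO. The share of Sdc4 stayed between 13.4% and 14.7% in all 4 libraries. These shares and ratios do not depend on the scaling of the libraries, but they do depend on the length taken for each gene. For 1 such value, 2 libraries on each side allow no 2-sided exact permutation p below 0.333, so none was used.

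**Figure D4:**
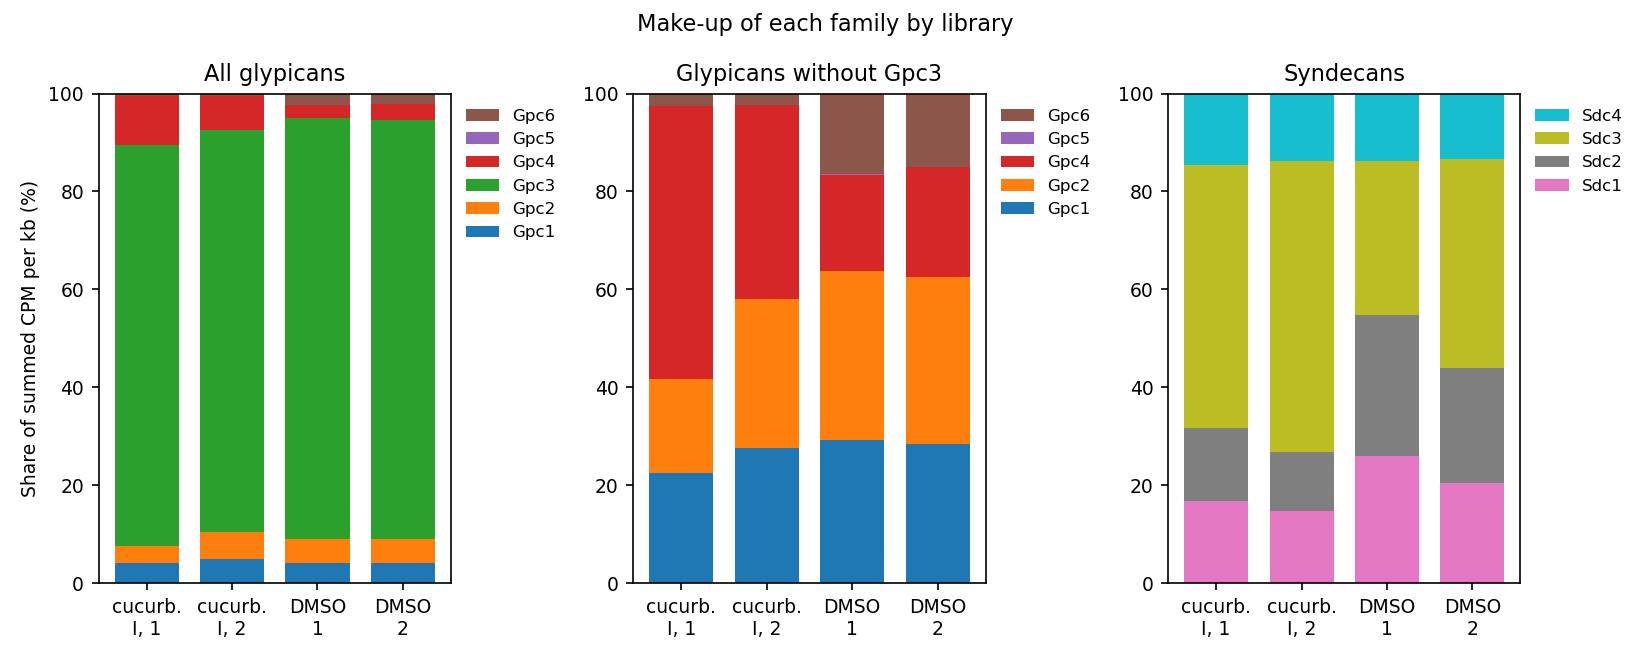
Share (%, vertical axis) of the summed CPM per kb held by each gene in each library, with cucurbitacin I at the left of each panel. The panels show all glypicans, the glypicans without Gpc3, and the syndecans. Gpc4 takes 55.6% and 39.7% of the middle panel in cucurbitacin I, against 19.6% and 22.4% in DMSO.

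The genes whose levels over the 4 libraries were most like those of Gpc6 and Sdc2 were sought among 10996 protein-coding genes averaging at least 5 CPM. The measure was the distance between log2 CPM values centred on each gene's mean, a description over 4 libraries. For Gpc6 they were Matn2 (distance 0.10), Art4 (0.16) and Sfrp2 (0.16), and for Sdc2 they were Gata2 (0.06), Ptbp1 (0.07) and Pole (0.07). Matn2, which encodes the matrix protein matrilin 2, was at 1.97 and 1.63 CPM in cucurbitacin I, against 11.6 and 11.7 CPM in DMSO.

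Genes that build the chains, modify them, cut them or bind them were examined as 11 lists with 84 tested genes, which hold none of the 10 proteoglycan genes above. Of the 84 genes, 11 (13.1%) were higher and 20 (23.8%) lower, where 13.9% and 19.5% of all genes tested were. Their median log2 fold change was -0.16. Leaving out DMSO replicate 1 gave 1 higher and 11 lower, leaving out DMSO replicate 2 gave 5 and 12, leaving out cucurbitacin I replicate 1 gave 7 and 18, and library totals as the scaling gave 6 and 31. No test over a list was made.

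Among other heparan sulfate proteoglycans, 1 of 10 was higher and 2 lower, shares of 10% and 20% beside 13.9% and 19.5% of all genes tested. Hspg2, which encodes the basement membrane proteoglycan perlecan, was at 646 and 410 CPM in cucurbitacin I, against 232 and 254 CPM in DMSO (log2 fold change 1.12, SE 0.23, adjusted p = 0.0186). Col18a1, the gene of collagen XVIII, was at 474 and 502 CPM in cucurbitacin I, against 766 and 861 CPM in DMSO (log2 fold change -0.74, adjusted p = 0.0126). Agrn, which encodes agrin, was at 524 and 535 CPM in cucurbitacin I, against 673 and 767 CPM in DMSO (log2 fold change -0.44, adjusted p = 0.0472). The call of Hspg2 was lost without DMSO replicate 1 (adjusted p = 0.099) or 2 (0.0608), Col18a1 without DMSO replicate 2 (0.055), and Agrn without any 1 of the 4 libraries (0.106 to 0.201) or with median-of-ratios scaling (0.051).

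Most genes of the enzymes that start and polymerize the chains did not pass, and of all genes tested 33.4% passed. Of 6 tested enzymes of the linker sugars 1 (16.7%) was higher, where 13.9% of all genes tested were. This was the xylose kinase gene Fam20b, at 154 and 145 CPM in cucurbitacin I against 111 and 123 CPM in DMSO. Its log2 fold change was 0.35 (adjusted p = 0.046), and it did not pass without any 1 of the 4 libraries (adjusted p 0.0617 to 0.239), with DESeq2 (0.0547), or with the filter on low counts dropped (0.058) or raised (0.0582). With library totals as the scaling it was 0.12 (adjusted p = 0.391). None of the 5 polymerization genes passed with edgeR or with DESeq2, and 1 had an unadjusted p below 0.05. The chain polymerase genes Ext1 and Ext2 had log2 fold changes of 0.25 (adjusted p = 0.196) and -0.30 (0.0867), and with library totals Ext2 was at -0.53 and passed (0.0149).

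Of 4 genes of N-sulfation 1 was lower, and of the 10 tested genes of the epimerase and O-sulfotransferases 4 were, where 19.5% of all genes tested were. Ndst1, which encodes the main enzyme of N-sulfation, was at 156 and 163 CPM in cucurbitacin I, against 197 and 201 CPM in DMSO (log2 fold change -0.32, adjusted p = 0.0492). It did not pass without any 1 of the 4 libraries (adjusted p 0.103 to 0.185), with median-of-ratios scaling (0.0509) or without a filter on low counts (0.0699). Ndst2 missed the threshold, with a log2 fold change of 0.25 (adjusted p = 0.0934). Hs3st3b1, which encodes a 3-O-sulfotransferase, was at 2.25 and 5.56 CPM in cucurbitacin I, against 26.2 and 36.1 CPM in DMSO (log2 fold change -3.0, SE 0.42, adjusted p = 0.00739). Of the 5 genes called lower in these 2 lists, it alone passed without each library in turn. Its paralog Hs3st3a1 was at 1.15 and 1.08 CPM in cucurbitacin I, against 2.87 and 4.27 CPM in DMSO (log2 fold change -1.67, adjusted p = 0.0155, or 0.0657 without DMSO replicate 2). Such paralogs are similar in sequence, and how reads that match both affect their counts was not tested.

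The low-count gene Hs6st3 was lower too, with 8 counts in all in cucurbitacin I and 59 in DMSO, a ratio of scaled counts of 0.166 (95% counting interval 0.0687 to 0.35). Its adjusted p was 0.0256, or 0.0922 without cucurbitacin I replicate 1 and 0.108 without DMSO replicate 2. Hs3st1, chosen after its values were seen, had a log2 fold change of -1.39 (adjusted p = 0.0367, or 0.0827 without cucurbitacin I replicate 2 and 0.177 without DMSO replicate 1). The epimerase gene Glce and the 2-O-sulfotransferase gene Hs2st1 had log2 fold changes of -0.04 (adjusted p = 0.752) and -0.03 (0.912). Hs6st1, at 182 and 210 CPM in cucurbitacin I and 148 and 225 CPM in DMSO, did not pass (0.07, 0.821). Nor did Hs6st2, at 95.7 and 42.5 CPM in cucurbitacin I and 55.8 and 77.9 CPM in DMSO (0.05, 0.932). The summed epimerase and O-sulfotransferase levels overlapped, at 394.2 and 350.5 CPM in cucurbitacin I and 342.3 and 453.4 CPM in DMSO. Of 5 genes that supply the sulfate donor 1 (20%) was lower, where 19.5% of all genes tested were. This was Papss1, whose enzyme makes the donor, at 64.3 and 63.2 CPM in cucurbitacin I, against 85 CPM in both DMSO libraries (log2 fold change -0.42, adjusted p = 0.0187). This call was lost without DMSO replicate 1 (adjusted p = 0.103) or 2 (0.0858).

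Of 5 tested genes that remodel finished chains or anchors, 2 (40%) were lower, where 19.5% of all genes tested were, and the other 3 did not pass. Sulf1, a secreted enzyme that removes sulfate groups from heparan sulfate, was at 77.6 and 60.4 CPM in cucurbitacin I, against 132 and 156 CPM in DMSO (log2 fold change -1.06, SE 0.16, adjusted p = 0.00828). Its relative Sulf2 was at 336 and 260 CPM in cucurbitacin I and 196 and 240 CPM in DMSO, a log2 fold change of 0.45 that missed the threshold (adjusted p = 0.0965). Sulf2 passed without cucurbitacin I replicate 2 (adjusted p = 0.0342). The heparanase gene Hpse was low throughout, at 0.246 and 0.181 CPM in cucurbitacin I against 1.5 and 1.44 CPM in DMSO (log2 fold change -2.75, adjusted p = 0.00734). Notum, whose enzyme acts on Wnt proteins and was described to release glypicans, had a log2 fold change of -0.77 and missed the threshold (adjusted p = 0.149).

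Of 6 tested proteases that shed the cores, Mmp2 (log2 fold change -2.09, adjusted p = 0.00529) and Mmp14 (-0.46, 0.0361) were lower and Adam17 (0.52, 0.0322) was higher. These are shares of 33.3% lower and 16.7% higher, beside 19.5% and 13.9% of all genes tested. Mmp14 did not pass without cucurbitacin I replicate 1 (adjusted p = 0.134) or DMSO replicate 1 (0.106) or 2 (0.149). Adam17 did not pass without the same libraries (0.0791, 0.161 and 0.085) or with library totals (log2 fold change 0.28, adjusted p = 0.125). Of 9 genes for partners of the syndecan tail, 3 (33.3%) were higher, where 13.9% of all genes tested were, and the other 6 did not pass. Actn1, which encodes alpha-actinin 1, a partner of Sdc4 in focal adhesions, was at 1621 and 929 CPM in cucurbitacin I, against 346 and 379 CPM in DMSO (log2 fold change 1.81, SE 0.28, adjusted p = 0.00913). Actn1 did not pass without DMSO replicate 1 (0.0568). Pdcd6ip, which encodes Alix, was at 287 and 224 CPM in cucurbitacin I, against 169 and 166 CPM in DMSO (log2 fold change 0.61, adjusted p = 0.0269). Pdcd6ip did not pass without cucurbitacin I replicate 1 (0.0585), DMSO replicate 1 (0.118) or DMSO replicate 2 (0.105), or with library totals (log2 fold change 0.37, adjusted p = 0.0861). The syntenin gene Sdcbp missed the threshold, at a log2 fold change of 0.33 (adjusted p = 0.0715), and its relative Sdcbp2, at 1.39 and 1.04 CPM in cucurbitacin I against 0.501 and 0.515 CPM in DMSO, passed (1.25, 0.0442) but not without any 1 of the 4 libraries (0.0716 to 0.216), with library totals (0.0748), DESeq2 (0.178) or limma-voom (0.0529), or without the filter on low counts (0.0504).

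Of the 10 growth factor genes whose products bind heparan sulfate, 3 (30%) were higher and 4 (40%) were lower. Of all genes tested, 13.9% were higher and 19.5% lower. Midkine, Mdk, was at 137 and 154 CPM in cucurbitacin I, against 432 and 380 CPM in DMSO (log2 fold change -1.48, SE 0.13, adjusted p = 0.00264). Hgf, hepatocyte growth factor, was at 0.246 and 0.271 CPM in cucurbitacin I, against 11.6 and 7.91 CPM in DMSO (log2 fold change -5.22, SE 0.36, adjusted p = 0.00194). The cucurbitacin I side of Hgf rests on only 6 and 6 counts, against 347 and 215 in DMSO. The chemokine gene Cxcl12 was at 69.5 and 105 CPM in cucurbitacin I, against 432 and 406 CPM in DMSO (log2 fold change -2.26, adjusted p = 0.00309). Each of these 3 passed without each library in turn. Hbegf, which encodes a heparin-binding relative of EGF, was at 47.2 and 27.7 CPM in cucurbitacin I, against 15.1 and 13.3 CPM in DMSO (log2 fold change 1.4, adjusted p = 0.0152). Hbegf did not pass without DMSO replicate 1 (0.0661) or 2 (0.0629).

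Enzymes of chondroitin sulfate, the other main chain of cell surface proteoglycans, were 2 of 14 higher (14.3%) and 4 lower (28.6%). Of all genes tested, 13.9% were higher and 19.5% lower. Chst12, a 4-O-sulfotransferase gene, was at 165 and 94.6 CPM in cucurbitacin I, against 27.2 and 37.3 CPM in DMSO (log2 fold change 2.01, SE 0.30, adjusted p = 0.00832). Chst3, a 6-O-sulfotransferase gene, was at 0.287 and 0.226 CPM in cucurbitacin I, against 2.91 and 2.47 CPM in DMSO (log2 fold change -3.36, SE 0.35, adjusted p = 0.00383). The cucurbitacin I side of Chst3 rests on only 7 and 5 counts, against 87 and 67 in DMSO. The polymerase gene Chsy3 (log2 fold change -1.69, adjusted p = 0.0156) and the sulfotransferase gene Chst15 (-0.80, 0.0189) were lower, and neither passed without DMSO replicate 1 (adjusted p = 0.0795 and 0.1).

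**Figure D5:**
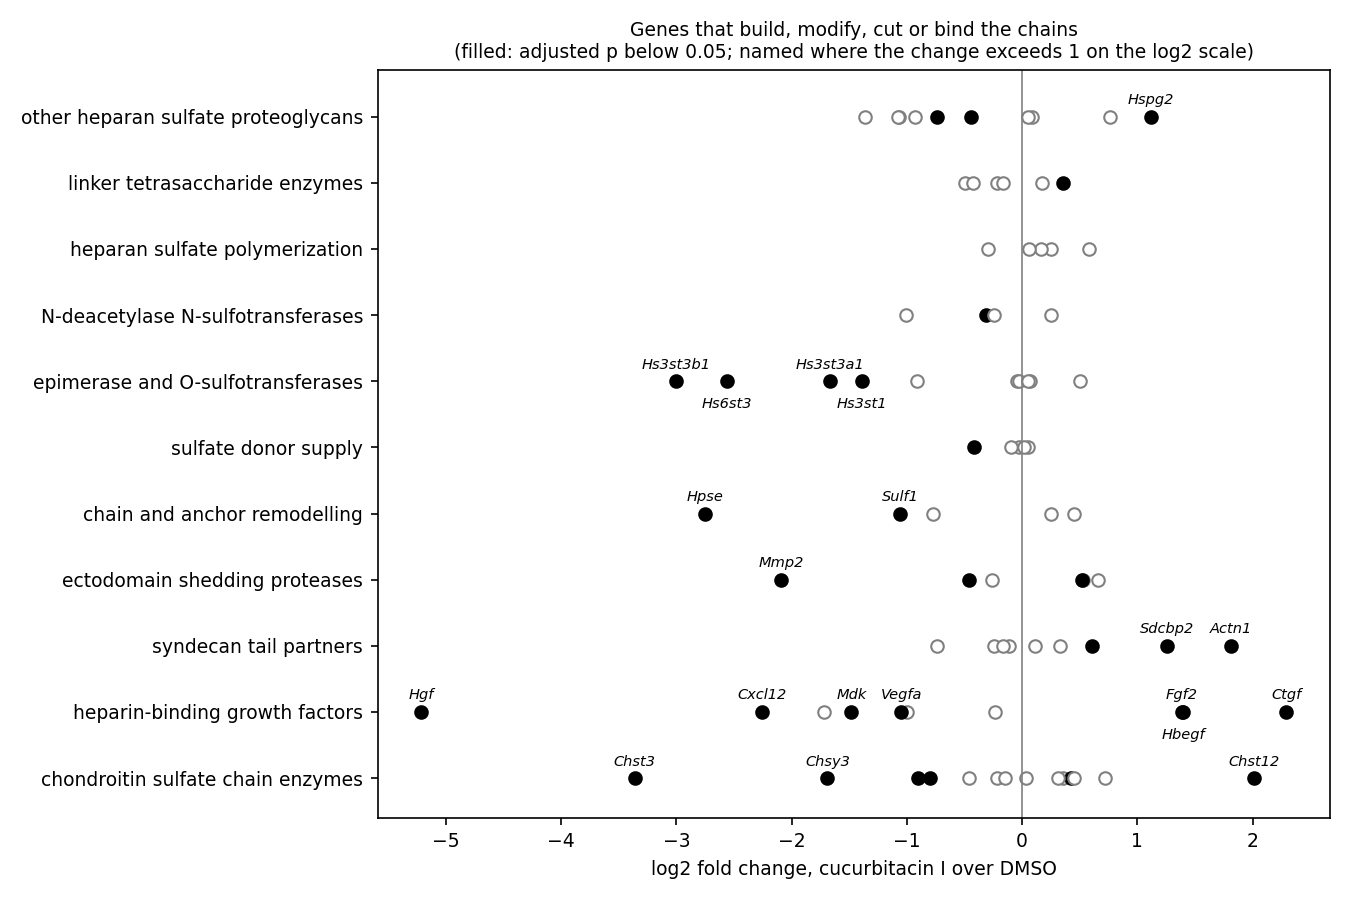
Log2 fold change, cucurbitacin I over DMSO (horizontal axis), of the tested genes of 11 lists (rows). Filled points passed an adjusted p of 0.05 and are named beyond 1 log2 unit. The 4 called O-sulfotransferases of heparan sulfate lie to the left, down to -3.0 for Hs3st3b1, and the other 6 tested genes of their row did not pass. The polymerization row has no filled point.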

How the data were processed

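RNA was sequenced from 2 cucurbitacin I and 2 DMSO libraries, grouped by sample title. The submitters' processing notes name STAR 2.3.0e, HTSeq 0.6.0 and build mm10, and the sources used here give neither annotation release nor strand setting. Raw counts for each gene, as whole numbers, were read from the single table that the authors deposited. Its other columns, per the file headers, are a size-factor normalized signal (not used here), and the authors' DESeq2 results, namely a log2 fold change with standard error, a test statistic that is a score without fixed range, and p-values. Of 43374 lines, 4195 repeated a gene and were dropped, and 27 symbols stored as dates were restored from the identifier.

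The members, lists and tests were chosen with earlier results of these data known. Differences were fitted to the counts by edgeR 4.0.16, under R 4.3.3 (filterByExpr with a minimum count of 10, TMM factors of 0.912 and 0.932 for cucurbitacin I and 1.11 and 1.06 for DMSO, glmQLFit, 2-sided glmQLFTest) and adjusted over all 16722 genes tested, with a threshold of 0.05. The script was tested on simulated data. Log2 fold changes had a median standard error of 0.17. Counts of replicates differed beyond sampling noise (chi-square over its degrees of freedom 36.5 in cucurbitacin I and 26.1 in DMSO), so each library counts once. Exon length came from GENCODE M21. Log2 CPM used a prior count of 2. Replicate numbers have no stated meaning in the labels and were not used for pairing.

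Named genes are the 10 members, up to 3 called genes of each list in its more frequent direction and 1 in the other (lowest adjusted p first), 13 genes whatever they showed, and for Gpc6 and Sdc2 the 3 genes of most similar pattern. Neighbouring genes, single marker genes, Hs3st1, Hs6st1 and Hs6st2 fall outside this rule: they were picked once their values were known. Alternatives were DESeq2 1.42.0, limma-voom (limma 3.58.1), other scalings, filters and thresholds, a replicate block and each library left out, where the group left with 1 library is assumed to vary like the other.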

Additional observations from a re-analysis of the deposited data

How the results depend on the processing

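The 1 higher and 3 lower calls among the glypicans and syndecans kept their counts with median-of-ratios scaling, limma-voom, the low-count filter dropped or raised to a mean of 50 counts, and the 20 most abundant genes left out, while DESeq2 gave 1 and 4. With library totals alone 5 were lower, and the counts were 6 higher and 31 lower for the 84 pathway genes (11 and 20 otherwise) and 1059 higher for all genes (2318 otherwise), where all genes had a median log2 fold change of -0.24. Leaving out each library in turn gave 0 to 2 higher and 2 to 4 lower for the glypicans and syndecans, 1 to 10 higher and 11 to 20 lower for the pathway genes, and 389 to 2109 higher and 1461 to 3001 lower for all genes. The lowest of these came without DMSO replicate 1. A threshold of 0.01 gave 0 higher for the glypicans and syndecans, 2 higher and 8 lower for the pathway genes, and 492 higher and 1262 lower for all genes. A test against a 1.5-fold change gave 2 higher and 10 lower for the pathway genes, and 375 higher and 1666 lower for all genes. These last settings are stricter by construction, and the cause of the other shifts was not tested. The log2 fold change of Glce turned positive without cucurbitacin I replicate 2 (0.0025) and without DMSO replicate 2 (0.0014), over a range of -0.086 to 0.0025 with each library left out. That of Hs2st1 turned positive without cucurbitacin I replicate 2, over a range of -0.27 to 0.19. Depth limits Gpc5, which had too few counts for a test.

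With the replicate number as a block, 1 glypican or syndecan gene was higher and 3 lower, 13 pathway genes were higher and 23 lower, and 2660 genes of all were higher and 3707 lower. Libraries with the same number deviated from their group means together with a correlation of 0.242 across genes. With 2 numbers only and no meaning given in the labels, they were not taken as a pairing. Of the 48 tested genes chosen by the naming rule, Ndst1 lost its call under the block (adjusted p = 0.0536), and it was the only one to do so. With the longest transcript as the length, the share of Gpc3 among the glypicans was 83.7% in cucurbitacin I and 86.3% in DMSO. Some orders in DMSO turned round with that length. Gpc6 then stood above Gpc4, Gpc1 above Gpc2, and Sdc1 above Sdc2. Of the syndecan level in DMSO, Sdc1 held 27.86% and 21.68%, and Sdc2 25.73% and 20.75%.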
